A study of Arabidopsis with 4 samples.

Results

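The calmodulin and calmodulin-like genes of Arabidopsis were followed in seedlings of jmj28-2 (n = 2 libraries) and of the wild type Col-0 (n = 2 libraries). They were taken by name from the deposited table, as every gene called CAM or CML with a number or described as a calmodulin-like protein or probable calcium-binding protein CML, which gave 53 of 32833 genes. Of these, 7 were calmodulin (CAM) genes and 46 calmodulin-like (CML) genes. RNA came from whole seedlings of 12 days, grown at 23 °C on medium with 1% sucrose under 16 h of light and 8 h of dark. jmj28-2 is a mutant line of JMJ28, which encodes a JmjC protein, a class that includes histone demethylases, and both genotypes are labelled with the Col-0 ecotype. The sources used here do not describe the mutation. Levels are given as TPM, a share of all transcripts in a library that is scaled for transcript length, so they can be compared between genes.

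Calmodulin is a small protein that binds calcium ions through helix-loop-helix units called EF hands and then docks onto kinases, pumps, channels and transcription factors. Plants read brief rises of calcium in the cytosol, set off by touch, cold, wounding or microbes, through this protein and through a large family of relatives, the CML proteins. Several CAM and CML transcripts are themselves known to accumulate within minutes of touch or wounding in Arabidopsis leaves and seedlings.

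JMJ28 (AT4G21430) was listed at 5.45 and 5.72 TPM in the jmj28-2 libraries, against 7.63 and 7.70 TPM in the Col-0 libraries, so that both mutant libraries lay below both wild-type libraries, but JMJ28 itself was not called (limma adjusted p = 0.235). RBCS-1A, a Rubisco small-subunit gene of green tissue, was listed at 18813 and 19939 TPM in jmj28-2, against 18977 and 18030 TPM in Col-0, and 20 of 20 root markers reached a mean of 1 TPM, so both shoot and root transcripts were present. Sequencing depth is unknown from TPM.

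The calmodulin genes were among the most abundant of the family, and the highest differences in TPM between genotypes were those of CML12, CML24, CML35 and CAM3, none of which was called. Summed over the 7 CAM genes, the level was 1158.3 and 1108.91 TPM in jmj28-2, against 1119.82 and 1067.59 TPM in Col-0, and the genotypes overlapped. Summed over the 46 CML genes it was 914.0 and 1009.21 TPM in jmj28-2, against 715.04 and 759.81 TPM in Col-0. Both jmj28-2 sums lay above both Col-0 sums, at 1.3 times the Col-0 mean. CML12, CML24 and CML35 together held 78.2% of that net difference of 224.2 TPM, and the remaining CML genes summed to 584.2 ± 4.72 TPM in jmj28-2 and 535.3 ± 0.77 TPM in Col-0 (SD, n = 2 each). The CAM genes made up 54.1 ± 2.5% of the family's transcripts in jmj28-2 and 59.7 ± 1.85% in Col-0. In whole seedlings, a different number of cells of one type and a different amount of RNA per cell cannot be told apart.

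**Figure D1:**
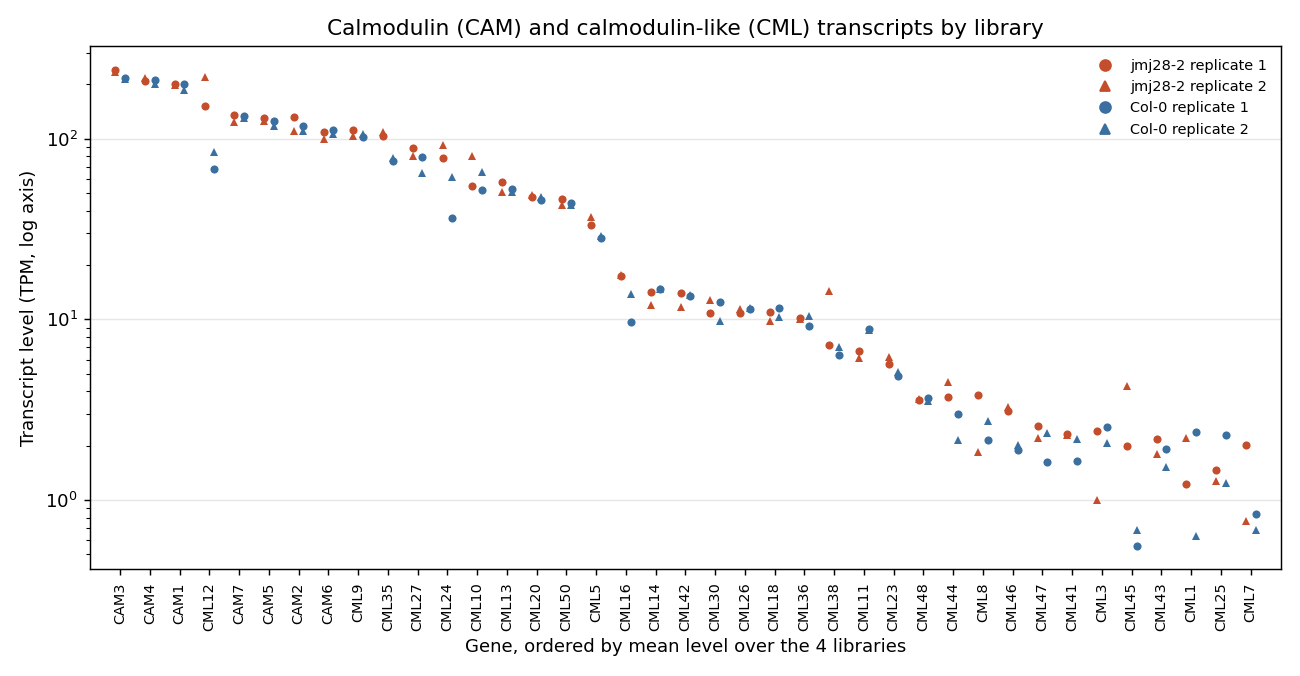
Transcript level in TPM (log axis) of the 39 CAM and CML genes with a mean of at least 1 TPM, ordered by mean, with jmj28-2 libraries in red left of Col-0 libraries in blue; circles are replicate 1 and triangles replicate 2. The points of 22 genes overlap between genotypes. Both red points lie above both blue ones for 14 genes, beside 29.0% of all genes tested, and below for 3, beside 17.6%. Among the 14 are CML12 (151.06 and 220.23 against 68.33 and 84.34 TPM), CML24, CML35, CML16 and CML45, and among the 3 is CML11. CML45 was tested only because of its jmj28-2 values.

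Of the 53 genes, 39 averaged 1 TPM or more across the 4 libraries and were tested, 6 lay above 0 but under that mean, and 8 were listed at 0 throughout. CML7, with a mean of 0.76 TPM in Col-0, was the lowest gene inside the limit at 1.08 TPM over the 4 libraries, and CML4 the highest outside it at 0.682 TPM. CML7 and CML45 reached the limit only through their jmj28-2 values.

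No CAM or CML gene passed the test over all genes. With limma, 0 of the 39 were called higher and 0 lower at an adjusted p under 0.05, where 0.0405% and 0.0354% of the 19764 genes tested were called higher and lower. At an unadjusted p under 0.05, 9 of the 39 were higher in jmj28-2, or 23.1%, where the share over all genes tested was 9.50%, and 1 was lower, or 2.56%, where that share was 4.36%. The 9 were CAM3, CML5, CML12, CML16, CML24, CML35, CML44, CML45 and CML46, and the lower one was CML11. Both jmj28-2 libraries lay above both Col-0 libraries for 14 of the 39 genes, beside 29.0% of all genes tested, and below both for 3, beside 17.6%. The remaining 22 overlapped. Of the 39, 30 had a positive log2 change, beside 57.3% of all genes tested, and the median log2 change was 0.08, beside 0.03 over all genes tested. CML45 is counted in the 9, the 14 and the 30, and CML7 in the 30. Both were tested only because of their jmj28-2 values, so they cannot count as support for a higher level. CML5, CML35 and CML46 were singled out after their values were seen; the 7 CAM genes, CML genes with published roles and the genes at both ends of the log2 changes follow a rule, and further members complete the account.

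**Figure D2:**
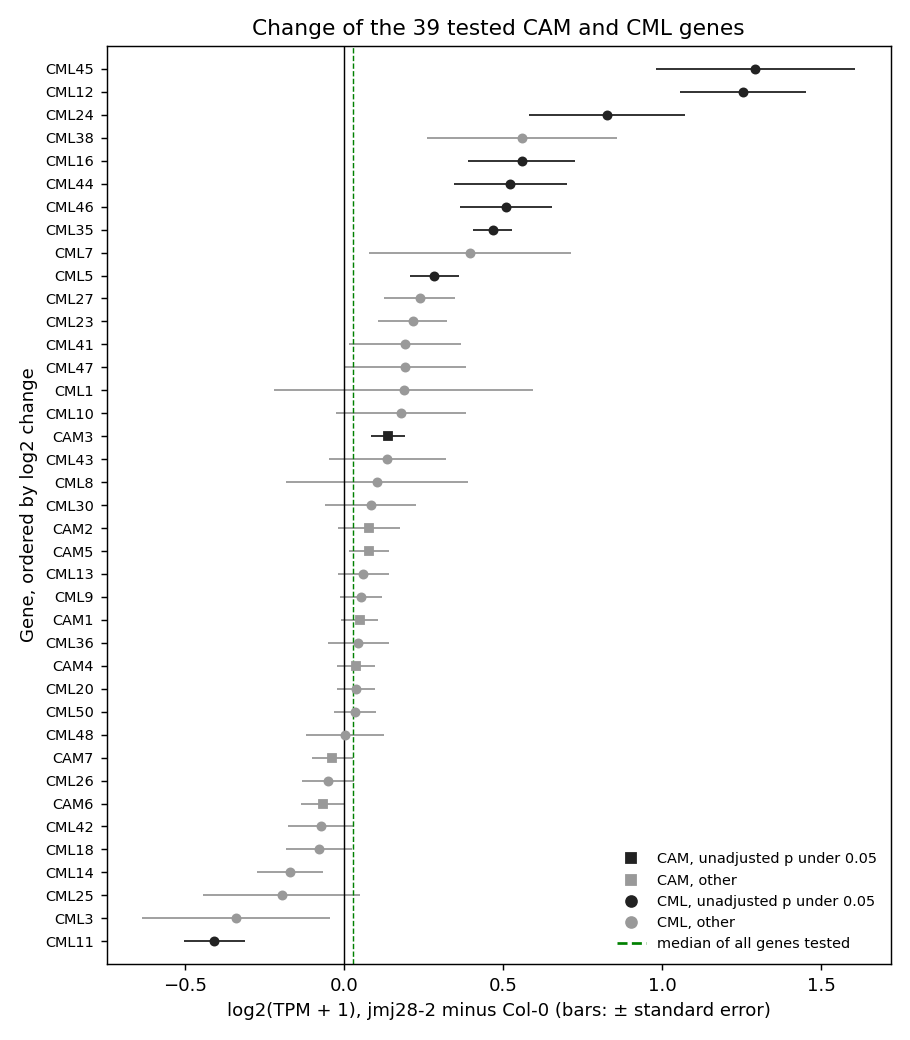
Difference in log2(TPM + 1), jmj28-2 minus Col-0, for each of the 39 tested genes with its standard error; squares are CAM genes, circles CML genes, black marks an unadjusted p under 0.05, and the dashed green line is the median of all genes tested. The 7 CAM genes span -0.06 to 0.14, whereas the CML genes span -0.41 (CML11) to 1.25 (CML12) and 1.29 (CML45). CML45 and CML7 were tested only because of their jmj28-2 values.

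The CAM genes encode calmodulin itself, and several of them encode the same protein. CAM3 (AT3G56800, which the deposited table names CAM5 and RefSeq names CAM3) was the most abundant gene of the family in each library. It was listed at 241.17 and 232.97 TPM in jmj28-2, against 217.72 and 212.98 TPM in Col-0. The genotypes did not overlap, but CAM3 was not called (log2 change 0.14, SE 0.0529, limma adjusted p = 0.351), and its unadjusted p stayed under 0.05 only with the other pseudocounts, with no filter and without jmj28-2 replicate 2, among the alternatives run.

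CAM4 (AT1G66410) had 208.01 and 218.01 TPM in jmj28-2, against 212.67 and 202.14 TPM in Col-0. CAM1 (AT5G37780), whose protein is the same as that of CAM4, had 201.89 and 199.07 TPM in jmj28-2, against 200.66 and 186.93 TPM in Col-0. Both overlapped between genotypes. CAM7 (AT3G43810), whose protein has also been described as binding light-responsive promoters, had 134.83 and 123.59 TPM in jmj28-2, against 133.84 and 130.85 TPM in Col-0, again with overlap.

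CAM5 (AT2G27030) had 130.9 and 125.46 TPM in jmj28-2, against 125.66 and 117.13 TPM in Col-0. CAM2 (AT2G41110), which was first found as the touch gene TCH1, had 131.98 and 110.2 TPM in jmj28-2, against 117.6 and 110.72 TPM in Col-0. CAM6 (AT5G21274) had 109.52 and 99.61 TPM in jmj28-2, against 111.67 and 106.84 TPM in Col-0. Values of these 3 genes overlapped between genotypes, and in Col-0 the range of CAM2 overlapped with those of CAM5 and CAM6, so that their order is not set.

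Added up by the protein they encode, CAM2, CAM3 and CAM5 reached 504.05 and 468.63 TPM in jmj28-2, against 460.98 and 440.83 TPM in Col-0. CAM1 and CAM4 together reached 409.9 and 417.08 TPM in jmj28-2, against 413.33 and 389.07 TPM in Col-0. The first sum was 1.08 times its Col-0 mean without overlap, and the second 1.03 times with overlap. Reads that match more than 1 gene are divided by estimation, and how many CAM reads this concerned is not known from the sources used here. Values of single CAM genes may therefore be less certain than these sums. Over the 7 CAM genes the median log2 change was 0.05, and the limma adjusted p was 0.351 or more.

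Of the touch genes, CML12 and CML24 had the highest differences in TPM of the family, and CAM2 did not. CML12 (AT2G41100), the touch gene TCH3, was listed at 151.06 and 220.23 TPM in jmj28-2, against 68.33 and 84.34 TPM in Col-0. Each mutant library lay well above both wild-type libraries, and the mean was 186 ± 48.9 TPM in jmj28-2 and 76.3 ± 11.3 TPM in Col-0, a ratio of 2.43. CML12 was nevertheless not called (log2 change 1.25, SE 0.199, limma adjusted p = 0.18). CML12 ranked at place 4 and 2 of the family in the jmj28-2 libraries and at place 11 and 9 in the Col-0 libraries.

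CML24 (AT5G37770), the touch gene TCH2, had 78.68 and 91.91 TPM in jmj28-2, against 36.62 and 61.65 TPM in Col-0. The genotypes did not overlap, but the Col-0 libraries lay 0.74 log2 units apart, nearly as far as the log2 change of 0.83 (SE 0.245, limma adjusted p = 0.277). Without Col-0 replicate 1, the lower library, the log2 change was 0.46, and without Col-0 replicate 2 it was 1.19. CML23 (AT1G66400), the closest relative of CML24, which together with it is known to act on flowering time and nitric oxide levels, had 5.70 and 6.22 TPM in jmj28-2, against 4.85 and 5.13 TPM in Col-0. Both mutant libraries were higher, by a log2 change of 0.22 that did not pass (SE 0.109, limma adjusted p = 0.453).

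These touch genes sit close to calmodulin genes on the chromosome, in RefSeq order on assembly TAIR10.1, and the CAM and CML genes beside them differed less. CML24 lies beside CAM1 on chromosome 5 with 0 protein-coding genes between them, and the mutant mean was 1.74 times the wild-type mean for CML24 and 1.03 times for CAM1. On chromosome 2, CML12 lies between CML10 and CAM2, with AT2G41105 between CML12 and CAM2 in RefSeq order. The ratio of means was 2.43 for CML12, beside 1.15 for CML10 and 1.06 for CAM2. CML10 (AT2G41090), a partner of a phosphomannomutase of ascorbate synthesis, had 54.57 and 80.56 TPM in jmj28-2, against 52.37 and 65.08 TPM in Col-0, and the genotypes overlapped. AT2G41105, a gene model that RefSeq places within the span of CML12 and that was added after values were seen, was listed at 25.71 and 22.93 TPM in jmj28-2, against 8.36 and 13.63 TPM in Col-0. The ratio of AT2G41105 was 2.21, near that of CML12, and it was not called (limma adjusted p = 0.212). The sources used here do not say whether counting used strand, so reads of these overlapping genes cannot be told apart. On chromosome 1, CML23 and CAM4 are neighbours, with ratios of 1.19 and 1.03. The differences between neighbours were not tested.

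**Figure D3:**
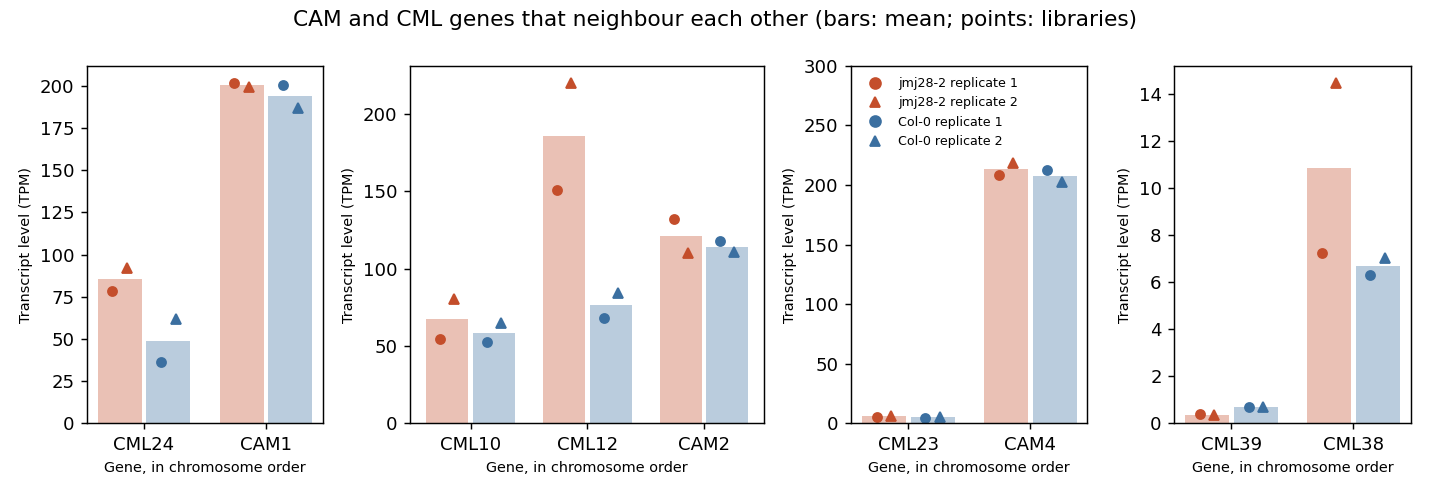
Transcript level in TPM of CAM and CML genes that neighbour each other in RefSeq order, with bars for the mean of 2 libraries (jmj28-2 red, left; Col-0 blue, right) and points for the libraries. CML24 and CML12 stand higher in jmj28-2 than in Col-0 while the calmodulin genes beside them, CAM1 and CAM2, overlap between genotypes; in the rightmost panel CML38 rests on 1 library.

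CML38 and CML39, another neighbouring pair on chromosome 1, had opposite differences. CML38 (AT1G76650), a protein of hypoxia-induced granules, had 7.25 and 14.46 TPM in jmj28-2, against 6.32 and 7.02 TPM in Col-0. Its higher mean rested on jmj28-2 replicate 2, without which the log2 change was 0.11 in place of 0.56 (limma adjusted p = 0.473 with all libraries). CML39 (AT1G76640), known from seedling establishment, was under the limit for testing at 0.40 and 0.34 TPM in jmj28-2, against 0.71 and 0.69 TPM in Col-0. Tested without that limit, it did not pass (limma adjusted p = 0.374).

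CML35 and CML5 differed by less than CML12 and CML24 in TPM, with a small spread, and the spread of CML16 and CML27 was wider. CML35 (AT2G41410) had 103.37 and 109.5 TPM in jmj28-2, against 75.36 and 78.0 TPM in Col-0. Its libraries agreed within each genotype, the ratio was 1.39, and it had the lowest limma adjusted p of the family (log2 change 0.47, SE 0.0602, adjusted p = 0.142). CML5 (AT2G43290), also called MSS3, had 33.2 and 36.94 TPM in jmj28-2, against 28.23 and 28.93 TPM in Col-0, without overlap (limma adjusted p = 0.257). CML16 (AT3G25600) had 17.48 and 17.58 TPM in jmj28-2, against 9.63 and 13.89 TPM in Col-0. The jmj28-2 libraries of CML16 were nearly equal while the Col-0 libraries were 0.49 log2 units apart, and the difference did not pass (log2 change 0.56, limma adjusted p = 0.281). Without Col-0 replicate 1, the lower library, the log2 change of CML16 was 0.32. CML27 (AT1G18210) had 88.51 and 80.76 TPM in jmj28-2, against 79.17 and 64.62 TPM in Col-0, a narrow separation, with Col-0 libraries 0.29 log2 units apart beside a log2 change of 0.24 (limma adjusted p = 0.425).

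Several CML genes with known or proposed parts in defence were at low levels. CML46 (AT5G39670), which with CML47 acts on salicylic acid levels, had 3.13 and 3.26 TPM in jmj28-2, against 1.89 and 2.01 TPM in Col-0. Both pairs of libraries were tight and did not overlap, at a ratio of 1.64 (log2 change 0.51, limma adjusted p = 0.266). CML47 (AT3G47480) had 2.57 and 2.21 TPM in jmj28-2, against 1.63 and 2.34 TPM in Col-0, and overlapped.

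CML41 (AT3G50770), which acts on callose at plasmodesmata during immunity, had 2.32 and 2.29 TPM in jmj28-2, against 1.64 and 2.17 TPM in Col-0, without overlap by a small margin (limma adjusted p = 0.667). CML43 (AT5G44460), linked to the hypersensitive response, had 2.19 and 1.80 TPM in jmj28-2, against 1.92 and 1.53 TPM in Col-0. CML42 (AT4G20780), of trichome branching and the response to herbivores, had 13.97 and 11.74 TPM in jmj28-2, against 13.47 and 13.57 TPM in Col-0. The last 2 overlapped between genotypes. CML37 (AT5G42380), of the same herbivore response, was under the limit at 0.59 and 0.57 TPM in jmj28-2, against 0.27 and 0.48 TPM in Col-0.

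CML9 (AT3G51920), which acts in flagellin, salt and abscisic acid responses, was the second most abundant CML gene over the 4 libraries and was nearly level, at 112.43 and 103.39 TPM in jmj28-2, against 101.99 and 105.79 TPM in Col-0 (log2 change 0.05, limma adjusted p = 0.759). CML8 (AT4G14640), linked to defence against bacteria, had 3.81 and 1.84 TPM in jmj28-2, against 2.16 and 2.74 TPM in Col-0, with both Col-0 values inside the range of the mutant.

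CML45 (AT3G29000) had the highest log2 change of the tested members, at a low level, and reached the limit only through its jmj28-2 values. It was listed at 1.98 and 4.28 TPM in jmj28-2, against 0.56 and 0.68 TPM in Col-0, a ratio of 5.05. The jmj28-2 libraries were 0.83 log2 units apart, and the difference did not pass (log2 change 1.29, SE 0.312, limma adjusted p = 0.235). CML44 (AT1G21550) had 3.73 and 4.49 TPM in jmj28-2, against 2.99 and 2.15 TPM in Col-0 (limma adjusted p = 0.313). Under the limit, CML40 (AT3G01830) had 0.71 and 0.78 TPM in jmj28-2, against 0.17 and 0.34 TPM in Col-0, and was not called when tested without the limit (limma adjusted p = 0.305).

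Lower means were fewer. CML11 (AT3G22930) had 6.66 and 6.13 TPM in jmj28-2, against 8.89 and 8.71 TPM in Col-0, without overlap and with a mutant level 0.727 times the wild-type level (log2 change -0.41, SE 0.0956, limma adjusted p = 0.232). CML14 (AT1G62820), which like CML13 binds the IQ motifs of myosins, had 14.21 and 11.96 TPM in jmj28-2, against 14.81 and 14.76 TPM in Col-0. Both jmj28-2 values were lower, but one only narrowly (limma adjusted p = 0.527). Its relative CML13 (AT1G12310) had 57.67 and 50.82 TPM in jmj28-2, against 52.92 and 50.79 TPM in Col-0, and overlapped. CML18 (AT3G03000) had 10.94 and 9.80 TPM in jmj28-2, against 11.64 and 10.35 TPM in Col-0, and overlapped as well.

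Some lower or uneven CML genes followed 1 library. CML3 (AT3G07490), a peroxisomal member, had 2.41 and 1.00 TPM in jmj28-2, against 2.55 and 2.07 TPM in Col-0, so only jmj28-2 replicate 2 stood clearly apart. CML7 (AT1G05990) had 2.03 and 0.77 TPM in jmj28-2, against 0.84 and 0.68 TPM in Col-0, with jmj28-2 replicate 1 apart. In CML25 (AT1G24620), known from pollen tubes and root hairs, values were 1.47 and 1.27 TPM in jmj28-2, against 2.28 and 1.24 TPM in Col-0, with Col-0 replicate 1 apart. The root markers also differed between the mutant libraries, summing to 2369 and 1883 TPM in jmj28-2, against 2250 and 2204 TPM in Col-0. PYK10 held most of that sum, at 2077 and 1702 TPM in jmj28-2, against 1967 and 1923 TPM in Col-0. The markers' median log2 difference from the Col-0 mean was 0.01 and -0.48 in jmj28-2, against -0.03 and 0.03 in Col-0. Of the 20 root markers, 4 had a positive log2 change, beside 57.3% of all genes tested, and 16 a negative one. PLT2, 1 of the 4, had a mean of 0.93 TPM in Col-0 and reached the limit only through its jmj28-2 values. No root marker was listed at 0 in every library, and the part of root RNA in these values was not tested.

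The remaining tested members, apart from CML1, had log2 changes within 0.1 of 0. CML1, CML20, CML26, CML30, CML36, CML48 and CML50 had limma adjusted p-values of 0.814 or more. CML20 (AT3G50360), a centrin-type protein, had 47.77 and 48.54 TPM in jmj28-2, against 46.12 and 47.65 TPM in Col-0. CML36 (AT3G10190), a partner of the calcium pump ACA8, had 10.23 and 10.04 TPM in jmj28-2, against 9.20 and 10.42 TPM in Col-0. CML1 (AT3G59450) was the least even, at 1.22 and 2.21 TPM in jmj28-2, against 2.37 and 0.63 TPM in Col-0. With a log2 change of 0.19 and an SE of 0.405, its direction is not set. Of the 39 genes, 16 had a log2 change within 0.1 of 0.

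The 8 genes listed at 0 in every library were CML2, CML15, CML17, CML29, CML31, CML32, CML33 and CML34. CML2 (also UNE14) and CML29 are known from the embryo sac and from pollen. CML28, another pollen gene, was listed at 0 in both jmj28-2 libraries, against 0.33 and 0.27 TPM in Col-0. CML6 was listed at 0 in both jmj28-2 libraries, against 0.06 and 0 TPM in Col-0. CML4 (AT3G59440), an endomembrane protein related to CML5, had 0.23 and 0.45 TPM in jmj28-2, against 0.75 and 1.3 TPM in Col-0 (limma adjusted p = 0.353 without the limit).

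Early stress genes, which like the touch genes are known to be switched on within minutes of handling, wounding or chilling, are given beside these values. Their list was chosen with earlier results of these data known, so its counts are a description and not an independent test. Of the 15, 13 were tested and 0 passed with limma (lowest adjusted p = 0.0736, for MYB44). Both jmj28-2 libraries lay above both Col-0 libraries in each of the 13, beside 29.0% of all genes tested, and 11 were higher at an unadjusted p under 0.05, beside 9.50%. Under the limit, CBF3 had 0.82 and 0.87 TPM in jmj28-2, against 0.70 and 1.16 TPM in Col-0, with overlap, and CBF1 had 0.29 and 0.24 TPM in jmj28-2, against 0 and 0.06 TPM in Col-0. Over the 13 tested genes, the median log2 difference from the Col-0 mean was 0.89 and 1.00 in the jmj28-2 libraries, against -0.26 and 0.26 in the Col-0 libraries. Summed over the 15 genes, the level was 419.8 and 496.4 TPM in jmj28-2, against 182.2 and 272.8 TPM in Col-0. ZAT10, a zinc-finger repressor, had 32.76 and 43.87 TPM in jmj28-2, against 9.17 and 24.91 TPM in Col-0. TCH4, a cell-wall enzyme and a further touch gene, named after its values were seen like MYB44, had 69.23 and 77.44 TPM in jmj28-2, against 34.98 and 47.14 TPM in Col-0. The value of Col-0 replicate 1 was the lowest of the 4 for ZAT10 and TCH4. This was also so for CML5, CML12, CML16, CML24, CML35, CML45 and CML46, but not for CAM3 and CML44. Both jmj28-2 values of all these genes lay above both Col-0 values, so the lowest value could only be a Col-0 one. The share of all genes with this order was not counted. In CML5, CML35, CML45 and CML46 the Col-0 libraries were only 0.03 to 0.11 log2 units apart. Harvest time within the day and handling are not described in those sources, and the part of early stress transcription in the CML values was not tested.

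**Figure D4:**
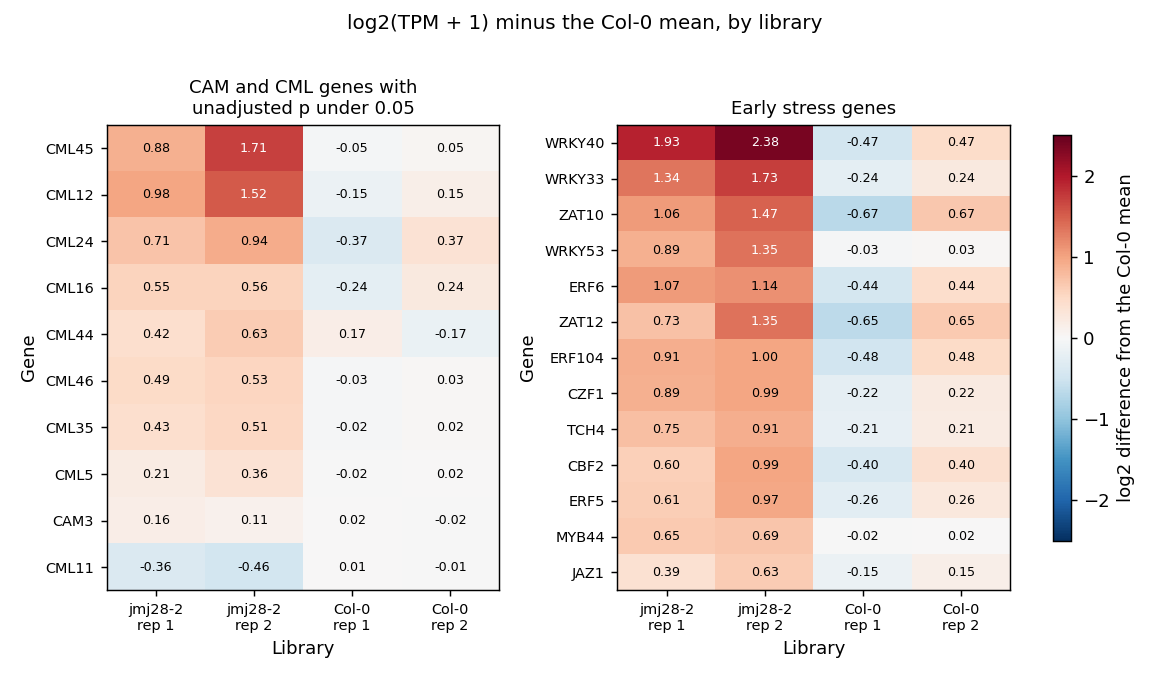
Difference of log2(TPM + 1) from the Col-0 mean in each library (columns) for the 10 CAM and CML genes with an unadjusted p under 0.05 (left) and for the 13 tested early stress genes (right); red is above and blue below the Col-0 mean. Both jmj28-2 columns are red for every gene but CML11. Col-0 replicate 1 is the lower Col-0 column for each early stress gene, whose medians are -0.26 and 0.26 in Col-0. It is also the lower one for CML5, CML12, CML16, CML24, CML35, CML45 and CML46, and the higher one for CAM3, CML11 and CML44. The share of all genes with either order was not counted. CML45 was tested only because of its jmj28-2 values.

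Partners of calmodulin and the other calcium sensors were described from 10 families, with 131 of 169 genes tested. Over them, 0 genes passed with limma in either direction, 10 were higher and 4 lower at an unadjusted p under 0.05, or 7.63% and 3.05%, and the median log2 change was -0.0002. Those shares lie near or below the 9.50% and 4.36% of all genes tested.

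Calcium-dependent protein kinases (CPK) carry a calmodulin-like domain of their own, and their median log2 change was -0.03. At an unadjusted p under 0.05, 3 of 24 were higher and 3 lower, beside 9.50% and 4.36% of all genes tested. CPK28, which limits immune signalling, had 17.06 and 20.51 TPM in jmj28-2, against 14.17 and 12.78 TPM in Col-0 (limma adjusted p = 0.243). CPK32 had 30.03 and 36.78 TPM in jmj28-2, against 23.63 and 25.76 TPM in Col-0, and CPK15 had 1.41 and 1.34 TPM in jmj28-2, against 2.37 and 2.73 TPM in Col-0. None of these 3 overlapped between genotypes and none passed. The calcineurin B-like sensors (CBL), with 0 of 7 at an unadjusted p under 0.05 in either direction, and their kinases (CIPK), with 0 of 23 higher and 1 lower, had median log2 changes of -0.03 and -0.02. The lower one, CIPK5, had 8.39 and 7.10 TPM in jmj28-2, against 9.31 and 10.41 TPM in Col-0 (limma adjusted p = 0.341).

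The autoinhibited calcium pumps (ACA), which calmodulin activates, had 3 of 8 genes higher and 0 lower at an unadjusted p under 0.05. The shares over all genes tested were 9.50% and 4.36%, and 0 ACA genes passed. ACA1 had 22.31 and 23.79 TPM in jmj28-2, against 18.38 and 17.78 TPM in Col-0 (limma adjusted p = 0.224). ACA4, of the vacuole membrane, had 58.95 and 54.5 TPM in jmj28-2, against 48.77 and 48.64 TPM in Col-0. ACA11, of the same membrane, had 25.91 and 25.05 TPM in jmj28-2, against 22.11 and 21.98 TPM in Col-0. All 3 were without overlap, at ratios of 1.16 to 1.27.

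Of the cyclic nucleotide-gated channels (CNGC), 2 of 15 were higher at an unadjusted p under 0.05, or 13.3%, beside 9.50% of all genes tested. CNGC3 had 5.57 and 6.23 TPM in jmj28-2, against 4.04 and 3.43 TPM in Col-0, and CNGC11, linked to defence, had 3.51 and 5.16 TPM in jmj28-2, against 2.27 and 2.25 TPM in Col-0 (limma adjusted p = 0.235 and 0.258). Of the glutamate receptor-like channels (GLR), 1 of 11 was higher, or 9.09%, near that share. It was GLR2.7, at 6.53 and 5.67 TPM in jmj28-2, against 4.77 and 3.73 TPM in Col-0.

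Among calmodulin-binding regulators of transcription, the CAMTA factors were nearly level and several CBP60 genes separated between genotypes without being called. The 4 CAMTA factors found had log2 changes between -0.04 and 0.04. CAMTA3, a repressor of salicylic acid defence, had 21.11 and 21.02 TPM in jmj28-2, against 20.1 and 21.37 TPM in Col-0. In the CBP60 family, CBP60G, an activator of salicylic acid synthesis, had 5.30 and 9.08 TPM in jmj28-2, against 3.01 and 3.71 TPM in Col-0, without overlap (log2 change 0.87, limma adjusted p = 0.265). Both jmj28-2 libraries lay above both Col-0 libraries in 4 of the 6 tested CBP60 genes, beside 29.0% of all genes tested. They lay below both in 1, beside 17.6%, and 1 was higher at an unadjusted p under 0.05, beside 9.50%. CBP60F had 7.26 and 6.53 TPM in jmj28-2, against 6.04 and 4.89 TPM in Col-0, and CBP60D had 1.04 and 0.86 TPM in jmj28-2, against 1.34 and 1.51 TPM in Col-0. CBP60D, the gene that lay below, reached the limit for testing only through its Col-0 values. SARD1, a partner of CBP60G in salicylic acid synthesis that was added after its values were seen, was under the limit at 1.15 and 1.40 TPM in jmj28-2, against 0.33 and 0.68 TPM in Col-0, and was not called when tested without it (limma adjusted p = 0.315). The IQD scaffold proteins had 0 of 30 genes at an unadjusted p under 0.05 in either direction and a median log2 change of -0.02. The glutamate decarboxylases (GAD), calmodulin-activated enzymes, had 0 of 3, and GAD2 had 244.48 and 246.8 TPM in jmj28-2, against 229.91 and 232.88 TPM in Col-0.

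**Figure D5:**
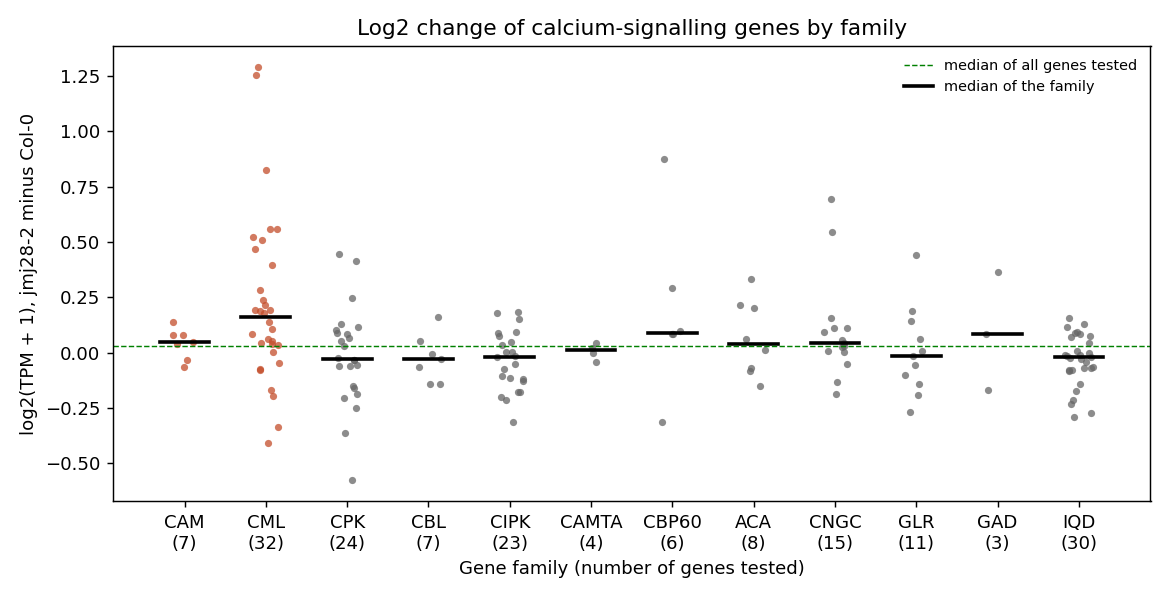
Log2 change (jmj28-2 minus Col-0, log2(TPM + 1)) of each tested gene by calcium-signalling family, CAM and CML in red and the other families in grey, with black bars for family medians and a dashed green line for the median of all genes tested. CML genes have a median of 0.16 and reach 1.25 in CML12 and 1.29 in CML45. CML45 and CML7, both counted in that median, were tested only because of their jmj28-2 values. CAM genes have a median of 0.05, and the highest gene of the other families, CBP60G, lies at 0.87.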

How the data were processed

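RNA sequencing gave transcript levels for 2 jmj28-2 and 2 Col-0 libraries, grouped by their labels. The values that the authors deposited are labelled FPKM but were read here as TPM, because each column sums to between 998943 and 999014, and the test planned for FPKM was kept. The submitters' processing notes name RSEM, TopHat, edgeR and the TAIR10 build, with no versions. The sources used here give no annotation version, strand setting or filter. No counting interval can be given, since TPM keep no depth, and an exact 0 may be a failed estimate.

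Genes with a mean of at least 1 TPM (19764) were fitted as log2(TPM + 1) with limma 3.58.1 under R 4.3.3. Genotype was the single term, with trended empirical Bayes moderation on 2 residual and 3.18 prior degrees of freedom. Log2 changes refer to log2(TPM + 1), so those of weakly expressed genes are understated. Tests were two-sided, adjusted by Benjamini-Hochberg over all genes tested. With 2 libraries a genotype, the smallest two-sided p of an exact permutation test is 0.333. Separate growth of the libraries is not stated in the labels, so p-values measure the spread between libraries, which may be technical. The procedure was tested on simulated data.

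The members, the lists and the rule for named genes were chosen with earlier results of these data known. The rule takes the CAM genes, CML genes with published roles, called members, the 6 highest and 6 lowest log2 changes and up to 3 genes per other family with the smallest p; the rest of the members are described by values. Families were found by the table's names and RefSeq names and synonyms (TAIR10.1, 32548 identifiers matched), used for names and gene order only. CAMTA1 and CBP60A were found only by synonym. The planned protein features were not used here. Figures were drawn with matplotlib 3.10.9.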

Additional observations from a re-analysis of the deposited data

How the results depend on the processing

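Under the 13 alternatives, 0 CAM or CML genes were called lower, and 1 was called higher under 1 of them: CML12 with the replicate block (limma adjusted p = 0.0421), a fit that called 12 genes higher and 6 lower in all. The replicate numbers were not taken as pairs, since no label ties them to a shared batch and the replicate differences of the genotypes correlated by 0.016 across 19764 genes. The members' median log2 change, 0.08 as reported, was 0.05 to 0.11, and the median over all genes tested, 0.03 as reported, moved as well. Quantile normalization and size factors brought the median over all genes to -0.0047 and -0.0007, beside 0.0543 and 0.056 for the members. Without jmj28-2 replicate 1 it was 0.0017, beside 0.0486, and without jmj28-2 replicate 2 it was 0.0583, beside 0.1088. Counts of members at an unadjusted p under 0.05 were added after seeing the data. Of these, 9 higher as reported became 5 with a minimum mean of 5 TPM, where 27 members were tested, and 6 to 9 when 1 library was left out, and 1 lower became 4 with no filter and 0 to 3 when 1 library was left out. With 1 library left out, the lone library of a genotype is assumed to vary like those of the other. The genes behind the counts changed as well, also when a library was left out. Robust moderation kept 7 of the 9 higher genes, losing CAM3 and CML24, where the share over all genes was 9.58%. The replicate block kept 8, losing CAM3 and adding CML27 and CML38, where that share was 8.7%. Among all genes, 8 called higher became 5 at a pseudocount of 0.01, 4 with no filter, 3 when the trend was dropped, 29 under robust moderation and 0 to 10 when 1 library was left out (0 without Col-0 replicate 2). The 7 called lower became 3 at a pseudocount of 0.01, 4 with a minimum mean of 5 TPM, 14 under robust moderation and 0 to 7 when 1 library was left out. The cause was not tested. Quantile normalization turned the log2 changes of CAM1 and CAM4 to -0.001021 and -0.009325. With 1 library left out, log2 changes that turned sign ranged from -0.001324 to 0.1004 for CAM1, -0.04984 to 0.2082 for CAM2, -0.1317 to 0.00381 for CAM6, -0.09788 to 0.02673 for CAM7, -0.723 to 0.04674 for CML3, -0.2756 to 0.4846 for CML8, -0.006657 to 0.1132 for CML9, -0.1546 to 0.0007248 for CML18, -0.4701 to 0.0801 for CML25 and -0.1887 to 0.04404 for CML42. None of these genes was called. Depth cannot be judged from TPM.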
